A study of Ovis aries with 36 samples.

Results

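The net change of the transcriptome over 20 h in a medium rich in volatile fatty acids was measured in cultured sheep cells. The submitters name them ruminal epithelial cells, the cells that line the forestomach. The comparison set 3 libraries harvested at T20 against 3 libraries harvested at T0, both in Grain medium. These 6 libraries, chosen by their labels alone, were part of 36 (2 media, 6 time points 4 h apart, 3 libraries each). The stated subject of the series was the influence of the amount of volatile fatty acids on daily rhythms of gene expression. All cells had first spent 2 h without serum in 100 nM dexamethasone, a synthetic glucocorticoid used to align the clocks of cultured cells, and T20 and T0 therefore share this treatment. Cells at T20 were harvested at 44 h and cells at T0 at 24 h. Grain medium held 71.1 mM acetate, 20.1 mM propionate, 16.0 mM butyrate, 1.7 mM valerate, 1.1 mM isobutyrate and 5.3 mM isovalerate, stated as 115.78 mM in total, at pH 7.2. Hay medium, used below only to ask whether the change differed between media, held 60.8, 14.6, 9.2, 1.2, 1.0 and 3.0 mM of the same acids in that order, stated as 89.79 mM in total, at the same pH. Cells without added acids were not analysed here. The labels give no breed, age or number of sheep and leave unstated if replicates were cultured apart. The p-values therefore measure only the spread between libraries of a group, pooled over all 36 in the main fit, and this spread may be technical. T20 and T0 lie 4 h apart on a 24 h cycle, and with these libraries a net change over 20 h and a difference between 2 phases of a daily cycle cannot be told apart.

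Volatile fatty acids are made by microbes in the rumen, taken up through the epithelium, and burned or turned into ketone bodies there. Butyrate also inhibits histone deacetylases in cultured cells. Immediate early genes, such as the EGR and FOS families, code for transcription factors whose short-lived mRNAs appear soon after a change of medium, growth factor or stress and then decline. The integrated stress response acts through the transcription factor ATF4 and raises amino acid transporters and repair factors, while the unfolded protein response raises chaperones of the endoplasmic reticulum.

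Expression is given in CPM, the counts of a gene per 1000000 counts of its library after scaling by TMM factors. CPM are not divided by gene length, so levels are compared between libraries of a gene and not between genes. Libraries held 57.4 to 64.4 M counts at T20 and 52.4 to 59.1 M at T0 (M, 1000000). Mitochondrially encoded mRNAs took 1.12 to 1.18% of the counts at T20 and 1.03 to 1.11% at T0, and ribosomal protein mRNAs took 3.94 to 4.05% at T20 and 4.09 to 4.26% at T0. The TMM factors were 0.960 to 0.973 at T20 and 0.944 to 0.974 at T0. Correlations of log CPM between libraries of a group lay between 0.981 and 0.984. The E-cadherin gene CDH1, an epithelial marker that overlaps another annotated gene, had 42.8 to 46 CPM at T20 and 41.1 to 45.2 CPM at T0. The 10 simple epithelial markers tested summed to 165 to 180 CPM at T20 and 180 to 206 CPM at T0. The 16 basal keratinocyte markers summed to 2209 to 2315 CPM at T20 and 2350 to 2518 CPM at T0. The mesenchymal gene VIM was also present, at 12928, 13594 and 13691 CPM at T20 and 13448, 12350 and 12515 CPM at T0, and it did not pass the test (adjusted p = 0.227). The 22 fibroblast markers summed to 26303 to 27839 CPM at T20 and 25669 to 27825 CPM at T0, and the leukocyte gene PTPRC was under 1 CPM in all 6 libraries. The fibroblast sum was above both epithelial sums in all 6 libraries, although CPM of different genes are not on the same scale. Whether the cells match the name given to them was not tested. In such bulk samples, fewer cells of a type and less RNA per cell cannot be told apart.

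Most of the change was small. A number without a unit after a gene name is its log2 fold change, T20 over T0 in Grain unless Hay or a difference is named. The gene lists with the largest shares of lower members at T20 were immediate early genes (22 of 36), basal keratinocyte markers (8 of 16) and amino acid and nutrient transporters (10 of 20), and the list with the largest share of higher members was the TCA cycle (8 of 21), among lists with at least 10 members tested. Of 22488 genes tested, 2032 (9.04%) differed between T20 and T0 at an adjusted p under 0.05 (edgeR quasi-likelihood test, Benjamini-Hochberg adjustment over all genes tested). Of these, 1133 (5.04% of the genes tested) were higher at T20 and 899 (4.00%) were lower. The median absolute log2 fold change was 0.206 over the genes past this threshold and 0.135 over all genes tested. Only 35 genes rose and 53 fell at least 2-fold, and 75 rose and 100 fell at least 1.5-fold. In 1080 of the 1133 genes that rose and 839 of the 899 that fell, the 3 libraries of T20 did not overlap the 3 of T0, against 23.5% of all genes tested (12.2% with T20 higher and 11.3% with T20 lower). Genes named below by rule for the size of their change were chosen without such overlap, so for them it adds no support. List members named by rule, clock genes aside, were picked for a small p in this same comparison. For them the lack of overlap is no independent support either. Fitted on the 6 libraries alone, the comparison called 1091 genes, 535 higher and 556 lower. Without replicate 1 of T0 it called 1276 genes, and without replicate 1 of T20 it called 1318.

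**Figure D1:**
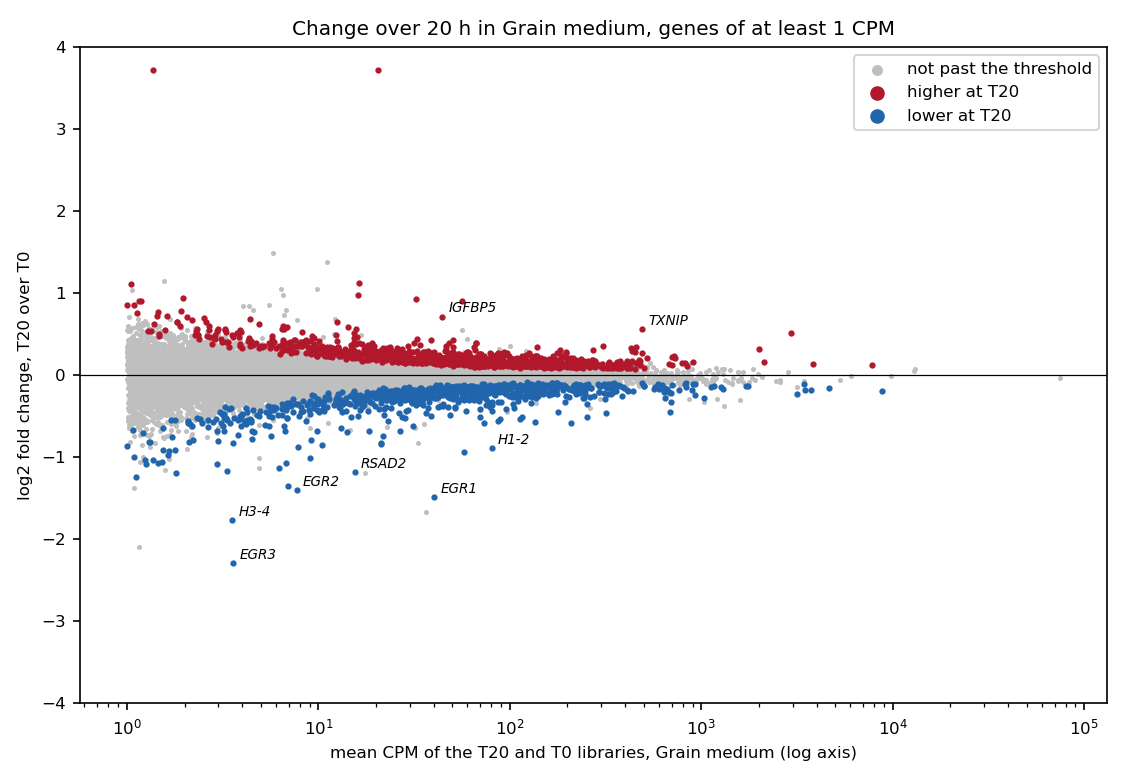
Log2 fold change (T20 over T0, vertical axis) against the mean CPM of the 6 libraries (horizontal log axis) for the 15362 tested genes with a mean of at least 1 CPM; the 7126 tested genes below 1 CPM are left out. Red points passed the threshold as higher at T20 and blue points as lower at T20, and EGR3 has the most negative value among the coloured points.

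Among the genes named by rule for the size of their fall, EGR3, EGR1, EGR2 and DUSP2 belong to the immediate early genes. EGR3, a zinc finger factor induced by growth factor signalling, had 1.15, 1.25 and 1.25 CPM in T20 libraries, against 6.17, 5.52 and 6.15 CPM in T0 libraries. No library of one group reached the other, and the gene was 0.204 times its T0 level (log2 fold change -2.29, SE 0.19, adjusted p = 1.08e-10). EGR1, the best known factor of the same family, had 20.4, 20.5 and 22.6 CPM at T20 and 56, 60.1 and 61.8 CPM at T0 (log2 fold change -1.48, SE 0.066, adjusted p = 4.04e-18). EGR2 had 3.28, 4.93 and 4.46 CPM at T20 and 11.1, 10.4 and 12.1 CPM at T0 (log2 fold change -1.4, SE 0.13, adjusted p = 3.12e-09). Each library of T20 lay below each of T0 for all 3 genes, as the rule that named them required. FOS, a subunit of the AP-1 factor, had 20.2, 20.6 and 20.5 CPM at T20 and 32.7, 32.2 and 33.1 CPM at T0, again without overlap (log2 fold change -0.67, SE 0.072, adjusted p = 4.24e-08). DUSP2, a phosphatase that switches off MAP kinases, fell by 0.85 on the log2 scale (adjusted p = 0.000233). It had 7.62, 6.81 and 7.94 CPM at T20 and 12.1, 15.6 and 12.8 CPM at T0.

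Of 36 immediate early genes tested, 22 fell, 2 rose and 12 did not pass, with a median log2 fold change of -0.26. The median over all genes tested was -0.00095. ATF3, a factor of both the early and the stress response that overlaps another annotated gene, had 202, 207 and 213 CPM at T20 and 314, 301 and 272 CPM at T0 (log2 fold change -0.51, adjusted p = 4e-12). Other members were named after their values had been seen. JUNB (log2 fold change -0.41), JUN (-0.25) and FOSL1 (-0.45, overlapping CCDC85B), which are further subunits of AP-1, fell, and so did the orphan nuclear receptors NR4A1 (-0.53), NR4A2 (-0.22, overlapping GPD2) and NR4A3 (-0.38). The EGF receptor ligands AREG (-0.3) and EREG (-0.18) fell as well, although the libraries of EREG, whose locus overlaps another annotated gene, overlapped between the groups. The 2 members that rose were DUSP1 (0.16), a phosphatase gene that is also a glucocorticoid target, and KLF2 (0.34), a Kruppel-like factor. Both rises had an adjusted p above 0.05 without replicate 3 of T0, and those falls did for NR4A2 without replicate 1 of T20, for NR4A3 without replicate 1 of T20 or replicate 1 of T0, and for EREG without replicate 2 or 3 of T20 or replicate 1 or 2 of T0. The summed level of the list was 1844 to 1888 CPM at T20 and 2208 to 2347 CPM at T0.

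**Figure D2:**
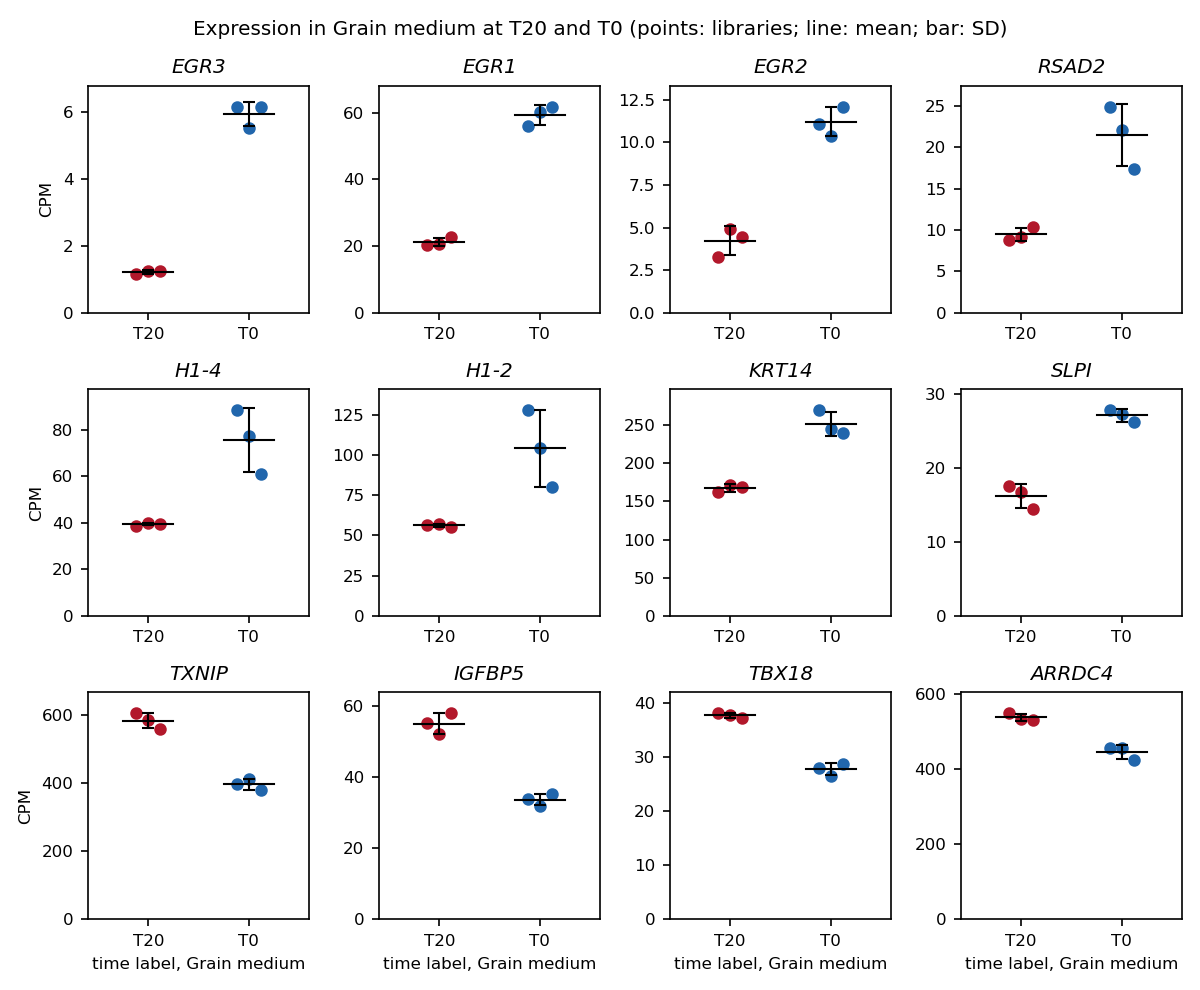
CPM (vertical axes, each from 0) of 12 genes in the 3 T20 libraries (red) and the 3 T0 libraries (blue) of Grain medium, with the mean and SD. In all 12 panels the points of the groups do not overlap, and for all but KRT14 and ARRDC4 the naming rule required this. EGR3, EGR1, EGR2, RSAD2, the linker histones H1-4 and H1-2, KRT14 and SLPI are lower at T20. TXNIP, IGFBP5, TBX18 and ARRDC4 are higher.

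Part of the integrated stress response was lower at T20. Of 29 genes tested, 12 fell and 1 rose, with a median log2 fold change of -0.17. PPP1R15A, which restores translation by recruiting a phosphatase to eIF2 alpha and overlaps PLEKHA4, had 36.4, 40.6 and 39.7 CPM at T20 and 50.5, 50.4 and 50.1 CPM at T0 (log2 fold change -0.37, SE 0.063, adjusted p = 0.00012), and its groups did not overlap. ATF4 itself, which overlaps other annotated genes, was -0.14 (adjusted p = 0.00179). TRIB3 (-0.48) and CHAC1 (-0.5), known targets of this response that were named after their values had been seen, fell. ASNS, the asparagine synthetase and a standard target, did not pass, with 267, 264 and 260 CPM at T20 and 282, 276 and 260 CPM at T0 (adjusted p = 0.443). The member that rose was ALDH1L2 (0.14), a mitochondrial enzyme of folate metabolism, whose adjusted p was above 0.05 without replicate 1 of T20 or replicate 1 of T0. DDIT3, the gene of CHOP, which overlaps MARS1 and a further annotated gene, was at 110, 120 and 135 CPM at T20 and 151, 162 and 149 CPM at T0. These groups did not overlap, but the gene did not pass (log2 fold change -0.34, SE 0.44, adjusted p = 0.736). In Hay T0, part of the same fit, it had 0.577, 7.9 and 0.715 CPM. The source of the wide SE was not tested, and the missing call does not show an unchanged level.

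Amino acid and nutrient transporters, some of them ATF4 targets, gave a similar picture. Of 20 tested, 10 fell and none rose, with a median log2 fold change of -0.17. SLC3A2, the heavy chain shared by several amino acid exchangers, which overlaps another annotated gene, had 38.2, 40 and 40.1 CPM at T20 and 55.1, 47.7 and 47.9 CPM at T0 (log2 fold change -0.35, SE 0.054, adjusted p = 3.88e-05). SLC7A1, a carrier of cationic amino acids, had 66.9, 59.8 and 66 CPM at T20 and 75.6, 74.7 and 75.4 CPM at T0 (log2 fold change -0.23, SE 0.044, adjusted p = 0.000682). The glucose carrier SLC2A3 (-0.27) and the zinc exporter SLC30A1 (-0.24, overlapping another annotated gene) fell in the same way, and for all 4 genes the groups did not overlap. Without replicate 3 of T20, 6 members passed, and 5 passed in the fit on the 6 libraries alone. Aminoacyl-tRNA synthetases, several of which are also ATF4 targets, moved in both directions. Of 20 tested, 6 rose, among them FARSB (0.17) and, both overlapping other annotated genes, RARS1 (0.21) and NARS1 (0.19), and 2 fell, AARS1 (-0.18) and SARS1 (-0.19).

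In the unfolded protein response list, 10 of 23 members fell and 3 rose (median log2 fold change -0.11). HSPA5, the main chaperone of the endoplasmic reticulum, had 7986, 8126 and 8474 CPM at T20 and 10119, 9429 and 8632 CPM at T0. The naming rule required no overlap, and the highest T20 library lay close to the lowest T0 library (log2 fold change -0.2, SE 0.038, adjusted p = 0.000551). HERPUD1, a component of the degradation machinery for misfolded proteins, had 401, 409 and 419 CPM at T20 and 491, 466 and 451 CPM at T0 (log2 fold change -0.2, SE 0.037, adjusted p = 0.000514). XBP1, a transcription factor of this response, was -0.2 (adjusted p = 0.000665). The chaperones HSP90B1 (-0.06, adjusted p = 0.427) and CALR (-0.06, adjusted p = 0.314) did not pass. The members that rose were CREB3L2 (0.2), a membrane-bound transcription factor, and the disulfide isomerases PDIA6 (0.14) and PDIA3 (0.13), both overlapping other annotated genes. The libraries of PDIA3 overlapped between the groups, and its adjusted p was above 0.05 without replicate 2 or 3 of T20 or of T0. Of 19 cytosolic heat shock genes, 3 rose and 2 fell, and 2 or 3 passed in all without replicate 1 of T20 or any of the 3 T0 libraries. DNAJB1, a co-chaperone of HSP70, had 72.9, 71.3 and 74.3 CPM at T20 and 108, 108 and 98.8 CPM at T0 (log2 fold change -0.53, SE 0.057, adjusted p = 4.82e-08) without overlap, while STIP1, an adaptor between HSP70 and HSP90 that overlaps another annotated gene, was 0.16 (adjusted p = 0.000145).

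Of 55 ribosomal protein mRNAs tested, 15 fell and none rose, 49 had a negative log2 fold change, and the median was -0.087. RPS19 had 307, 313 and 308 CPM at T20 and 376, 343 and 369 CPM at T0 (log2 fold change -0.23, SE 0.051, adjusted p = 0.00255), and RPL8 had 615, 640 and 606 CPM at T20 and 696, 675 and 717 CPM at T0 (log2 fold change -0.17, SE 0.039, adjusted p = 0.00421). In neither gene did the groups overlap. Between 5 and 8 members passed without replicate 1 of T20, replicate 3 of T20, replicate 1 of T0 or replicate 3 of T0. Many ribosomal protein genes have processed copies in the genome, so that their counts are uncertain. Of 28 ribosome biogenesis genes, 2 rose and 2 fell, with NOP56, a box C/D snoRNP protein whose locus overlaps other genes, at -0.2 (adjusted p = 0.00168). Without replicate 1 of T20 or replicate 1 of T0, 1 of these genes passed, and 2 passed without replicate 3 of T20 or replicate 3 of T0. SQSTM1, the autophagy receptor p62, which overlaps other annotated genes, had 265, 267 and 269 CPM at T20 and 392, 365 and 349 CPM at T0 (log2 fold change -0.47, SE 0.04, adjusted p = 2.3e-10), and its groups did not overlap. Across the autophagy and lysosome list of 31 genes, 4 fell and 3 rose (4 past the threshold in all without replicate 1 of T0), with BECN1, a subunit of a lipid kinase complex of autophagy that overlaps CNTD1, at 0.19 (adjusted p = 1.43e-05). Of 31 proteasome subunits 3 rose and none fell (1 rose without replicate 2 of T20, without replicate 1 of T0 or in the fit on the 6 libraries alone).

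Counts of several histone genes were lower at T20, and how fully these libraries capture histone mRNAs was not tested. H1-4, a linker histone, had 38.8, 39.8 and 39.4 CPM at T20 and 88.5, 77.2 and 60.9 CPM at T0 (log2 fold change -0.94, SE 0.1, adjusted p = 7.07e-08), and H1-2, a second linker histone, had 56.5, 57.3 and 55.3 CPM at T20 and 128, 104 and 80.3 CPM at T0 (log2 fold change -0.89, SE 0.099, adjusted p = 8.27e-08). The T20 libraries lay within a narrow range below all T0 libraries, which were spread out with replicate 1 highest in both genes. H3-4, a histone H3 gene, had 1.86, 1.08 and 1.89 CPM at T20 and 5.18, 6.41 and 4.92 CPM at T0 (log2 fold change -1.77, SE 0.23, adjusted p = 1.33e-06). Further histone genes were looked up after these values had been seen. H1-6 (-0.55) and H1-5 (-0.62), both overlapping other annotated genes, fell, whereas H1-1 (-0.12, adjusted p = 0.293) and the replication-independent H2AZ1 (0.02, adjusted p = 0.877) did not pass. The adjusted p of H1-5 was above 0.05 without replicate 1 or 2 of T20 or replicate 1 of T0. None of 38 mitosis genes passed in edgeR or in DESeq2, and 2 had an unadjusted p under 0.05 in edgeR; 1 passed, lower, without replicate 2 of T20 or replicate 3 of T0. Of 40 genes of DNA replication and S phase 2 rose and 2 fell (2 past the threshold in all without replicate 1 of T20). TOP2A, a topoisomerase of dividing cells, was at 71.9, 73.2 and 78.2 CPM at T20 and 76.6, 75.4 and 69 CPM at T0 (adjusted p = 0.9). CCNE1, the cyclin of the entry into S phase, fell (-0.21, adjusted p = 0.00453), and RFC5, a subunit of the clamp loader whose locus overlaps WSB2, rose (0.19, adjusted p = 0.00244).

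Of 20 CDK inhibitor and p53 target genes, 7 fell and none rose. BTG2, an antiproliferative gene that also responds early to growth factors, had 39.8, 39.9 and 43.5 CPM at T20 and 54.7, 54.3 and 51.7 CPM at T0 (log2 fold change -0.38, SE 0.046, adjusted p = 4.47e-07). CDKN1A, the inhibitor p21, had 40.6, 44.6 and 46.2 CPM at T20 and 58.1, 51 and 50.6 CPM at T0 (log2 fold change -0.28, SE 0.05, adjusted p = 0.000233). PLK3 (-0.43, overlapping DYNLT4), a stress-induced kinase, and GADD45B (-0.39), a stress sensor, fell too, and the groups did not overlap in any of the 4. Within a list of 13 genes known to be induced by histone deacetylase inhibitors, 4 rose and 4 fell (5 past the threshold in all without replicate 2 of T20 or replicate 3 of T0). TXNIP, an arrestin-like protein that binds thioredoxin and limits glucose uptake, had 607, 587 and 561 CPM at T20 and 399, 412 and 379 CPM at T0 (log2 fold change 0.56, SE 0.031, adjusted p = 1.85e-15); it overlaps POLR3GL. ARRDC4, a related arrestin gene, had 549, 534 and 531 CPM at T20 and 456, 457 and 425 CPM at T0 (log2 fold change 0.27, SE 0.03, adjusted p = 8.27e-08). The T20 libraries lay above the T0 libraries in both genes, which the naming rule required for TXNIP.

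Markers of epithelial cell states were next examined. Of 16 basal keratinocyte markers, 8 fell and none rose (median log2 fold change -0.26). KRT14, a keratin of basal cells, had 162, 172 and 169 CPM at T20 and 270, 245 and 240 CPM at T0 (log2 fold change -0.58, SE 0.054, adjusted p = 1.75e-09). ITGB4, the beta subunit of the hemidesmosome integrin, which overlaps a tRNA gene, had 7.33, 7.43 and 7.88 CPM at T20 and 12.6, 11.9 and 11.9 CPM at T0 (log2 fold change -0.69, SE 0.12, adjusted p = 0.000198). The groups did not overlap in either gene. SFN (-0.68), the 14-3-3 protein of stratified epithelia, and S100A2 (-0.39, overlapping another annotated gene), a calcium-binding protein of basal cells, fell as well. KRT5 (-0.33), the partner of KRT14 that was named after its value had been seen, fell. The basal factor TP63 was at 4.21, 5.12 and 4.08 CPM at T20 and 5.25, 5.97 and 4.82 CPM at T0 and did not pass (adjusted p = 0.235). The markers summed to 2209 to 2315 CPM at T20 and 2350 to 2518 CPM at T0.

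Of 10 simple epithelial markers, 4 fell and none rose (median log2 fold change -0.33), and 2 passed without replicate 1 of T0. CLDN4, a tight junction claudin, had 8.35, 8.95 and 8.12 CPM at T20 and 12.3, 11.5 and 11 CPM at T0 (log2 fold change -0.45, SE 0.085, adjusted p = 0.000452), and KRT19 had 44.1, 50.6 and 48.1 CPM at T20 and 62.9, 62.3 and 53.3 CPM at T0 (log2 fold change -0.32, SE 0.064, adjusted p = 0.000908). EPCAM was at 25.7, 28.5 and 25 CPM at T20 and 33, 30.3 and 28 CPM at T0 and did not pass (adjusted p = 0.0965), nor did CDH1 (adjusted p = 0.902). Among 14 differentiated keratinocyte markers 2 fell and 1 rose. KRT6A, a keratin of activated keratinocytes, had 18, 19.1 and 18.9 CPM at T20 and 29.1, 28.7 and 24.9 CPM at T0 (log2 fold change -0.56, SE 0.076, adjusted p = 4.19e-06), KRT17, a further keratin of this state, was -0.51 (adjusted p = 9.9e-10), and DSC2, a desmosomal cadherin, rose (0.21). SLPI, a secreted protease inhibitor of mucosal surfaces, had 17.5, 16.7 and 14.4 CPM at T20 and 27.8, 27.3 and 26.1 CPM at T0 (log2 fold change -0.74, SE 0.065, adjusted p = 4.96e-10). SPINK5, an inhibitor of skin proteases, went the other way with 7.73, 7.86 and 7.44 CPM at T20 and 4.64, 5.33 and 5.66 CPM at T0 (log2 fold change 0.56, SE 0.11, adjusted p = 0.00122). The groups did not overlap in CLDN4, KRT19 or KRT6A, nor in SLPI or SPINK5, for which the naming rule required this. Fibroblast markers, given above as a sum, moved in both directions, with 4 of 22 lower and 2 higher, and of 12 endothelial markers 1 fell in edgeR and 1 rose in DESeq2, with none past the threshold in edgeR without any 1 library other than replicate 3 of T20 or in the fit on the 6 libraries alone. In the fit on the 6 libraries alone 2 fibroblast markers passed. The part of the cell mixture in these falls was not tested.

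Extracellular matrix genes moved in both directions. Of 36 collagen and fibrillar matrix genes, 7 fell and 3 rose. COL3A1, the chain of type III collagen, had 3374, 3529 and 3572 CPM at T20 and 4076, 3836 and 3987 CPM at T0 (log2 fold change -0.18, SE 0.034, adjusted p = 0.000346). COL1A2, a chain of type I collagen that did not pass in the fit on the 6 libraries alone, had 3907, 3995 and 4085 CPM at T20 and 3707, 3430 and 3794 CPM at T0 (log2 fold change 0.13, SE 0.028, adjusted p = 0.0015). The groups did not overlap in either gene, which the naming rule required. By their fold changes, these chains of type III and type I collagen differed in direction. COL5A2 (-0.23), a chain of type V collagen, and FMOD (-0.45), the small proteoglycan fibromodulin, fell, and COL6A3 (0.18) rose. SPARC, a matricellular glycoprotein, fell by 0.18 on the log2 scale (adjusted p = 0.00348; adjusted p above 0.05 without replicate 1 of T0). FN1, the fibronectin gene, did not pass, with 73008, 74950 and 74876 CPM at T20 and 77474, 74240 and 75704 CPM at T0 (adjusted p = 0.648). The laminin chain LAMC1 had 755, 761 and 742 CPM at T20 and 666, 634 and 640 CPM at T0 (log2 fold change 0.22, SE 0.028, adjusted p = 1.44e-06), and 3 of 24 laminin and integrin genes rose and 5 fell (5 past the threshold in all without replicate 1 of T20). Among 22 collagen processing enzymes 4 fell and 3 rose, with the prolyl hydroxylase subunit P4HA1 (-0.21, overlapping other genes) and the lysyl oxidase LOXL2 (-0.15, overlapping another gene) lower and the procollagen peptidase enhancer PCOLCE2 (0.19) higher. Without replicate 1 of T20 or replicate 1 of T0, 4 of these enzymes passed and LOXL2 did not.

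Of 26 matrix proteases and inhibitors, 7 fell and 2 rose. MMP14, a membrane-bound collagenase, had 86.9, 93.4 and 92.9 CPM at T20 and 126, 111 and 110 CPM at T0 (log2 fold change -0.35, SE 0.057, adjusted p = 8.41e-05). MMP1, a secreted collagenase, had 54.5, 54.9 and 55.3 CPM at T20 and 67.4, 67.9 and 67.5 CPM at T0 (log2 fold change -0.3, SE 0.062, adjusted p = 0.00131). The urokinase PLAU (-0.32) and the aggrecanase ADAMTS1 (-0.29) fell in the same way, without overlap between the groups of any of the 4. In the TGF-beta list, 10 of 26 genes fell and 2 rose, with TGFB1 (-0.19, overlapping CCDC97), a ligand, lower and GREM1, a secreted antagonist of BMPs, higher (455, 471 and 512 CPM at T20 and 424, 365 and 357 CPM at T0, log2 fold change 0.33, SE 0.045, adjusted p = 5.19e-06). This count depended on single libraries, since 3 members passed without replicate 1 of T20, 4 without replicate 1 of T0 and 7 without replicate 2 of T20, and 3 passed in the fit on the 6 libraries alone. In the IGF axis, IGFBP5, a binding protein that modulates IGF action, had 55.1, 52 and 58 CPM at T20 and 33.8, 31.9 and 35.1 CPM at T0 (log2 fold change 0.71, SE 0.057, adjusted p = 7.96e-11). Its relatives IGFBP3 (-0.28), IGFBP2 (-0.18) and IGFBP7 (-0.17) fell, and with IRS2 they made 4 lower and 1 higher of 15 tested (3 past the threshold in all without replicate 1 of T20 or replicate 1 of T0). Of 13 smooth muscle markers CNN1, a calponin, fell (-0.25, adjusted p above 0.05 without replicate 1 of T0) and CALD1, a caldesmon, rose (0.15, adjusted p above 0.05 without replicate 3 of T0).

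Nuclear genes of oxidative metabolism that passed were higher at T20. Of 21 genes in the TCA cycle list, 8 rose and none fell (5 rose without replicate 2 of T0, and 1 fell beside 8 that rose without replicate 3 of T0). The list is wider than the cycle itself, and the genes that rose include IDH1 and the pyruvate dehydrogenase genes PDHA1 and DLAT. IDH1, the cytosolic isocitrate dehydrogenase, had 267, 272 and 270 CPM at T20 and 246, 242 and 231 CPM at T0 (log2 fold change 0.17, SE 0.026, adjusted p = 3.88e-05). IDH3A, a subunit of the mitochondrial enzyme that overlaps ACSBG1, was 0.17 (adjusted p = 0.000278). Of 23 nuclear-encoded respiratory chain subunits, 7 rose and none fell. NDUFB3, a subunit of complex I, had 51.4, 53 and 50.2 CPM at T20 and 42.5, 40.5 and 40.5 CPM at T0 (log2 fold change 0.32, SE 0.034, adjusted p = 2.87e-08), and ATP5PO, a subunit of the ATP synthase, was 0.19 (adjusted p = 0.000145). The groups of IDH1 and NDUFB3 did not overlap. The 13 mitochondrially encoded mRNAs split, with 4 higher and 3 lower (4 past the threshold in all without replicate 1 or replicate 2 of T20). ND1, of complex I, had 365, 352 and 312 CPM at T20 and 289, 275 and 241 CPM at T0 (log2 fold change 0.35, SE 0.065, adjusted p = 0.000366), and CYTB, of complex III, had 216, 232 and 206 CPM at T20 and 286, 264 and 241 CPM at T0 (log2 fold change -0.27, SE 0.061, adjusted p = 0.00311). COX1, of complex IV, whose locus overlaps a tRNA gene, rose (0.13) and COX3, of the same complex, fell (-0.2). The adjusted p was above 0.05 for COX1 without replicate 2 of T20 or replicate 3 of T0, and for COX3 without replicate 3 of T20 or replicate 1 of T0. Of the 13, 8 had a negative log2 fold change, 3 of them past the threshold, while the share of counts of all 13 together, given above, was higher at T20. That share was taken before TMM scaling. After scaling the 13 summed to 11635 to 12206 CPM at T20 and 10551 to 11739 CPM at T0, so that the groups overlapped.

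Of 33 genes of short-chain acid and ketone metabolism, 5 rose and none fell (3 without replicate 1 of T0 or in the fit on the 6 libraries alone). ACADSB, the dehydrogenase of short branched-chain acyl-CoA, had 90.5, 90.6 and 85.6 CPM at T20 and 76.2, 80.8 and 75.6 CPM at T0 (log2 fold change 0.2, SE 0.033, adjusted p = 0.000115). ACSS2, which activates acetate in the cytosol, had 41.6, 39.9 and 38.8 CPM at T20 and 32.4, 33.4 and 33.4 CPM at T0 (log2 fold change 0.28, SE 0.056, adjusted p = 0.000995), and for both genes the groups did not overlap. PCCA (0.17, overlapping GGACT), a subunit of the propionyl-CoA carboxylase, and CPT1A (0.16, overlapping a tRNA gene), the carnitine transferase of long-chain acids, also rose. Among 22 genes of acid transport and pH control 2 fell, among them the carbonic anhydrase CA2 (-0.32), and none rose, while DESeq2 called 2 lower and 1 higher. Without replicate 1 of T20 none of the 22 passed, without replicate 2 of T20 1 fell, and without replicate 1 of T0 1 rose and none fell. The adjusted p was above 0.05 for CA2 without replicate 1 or 2 of T20 or replicate 1 or 3 of T0, and for PCCA without replicate 1 of T0. The monocarboxylate transporter SLC16A1 was at 81.5, 79.7 and 82 CPM at T20 and 89.1, 90.5 and 81.6 CPM at T0 and did not pass (adjusted p = 0.083). Of 22 cholesterol synthesis genes, 6 rose and 1 fell. IDI1, the isopentenyl diphosphate isomerase, which overlaps WDR37, had 164, 167 and 159 CPM at T20 and 151, 148 and 138 CPM at T0 (log2 fold change 0.17, SE 0.037, adjusted p = 0.0027), without overlap between the groups. The cholesterol count was 3 without replicate 2 or replicate 3 of T20 or in the fit on the 6 libraries alone. In glycolysis 5 of 21 genes fell and 1 rose. HK2, a hexokinase that overlaps other genes, had 106, 105 and 102 CPM at T20 and 126, 122 and 114 CPM at T0 (log2 fold change -0.21, SE 0.039, adjusted p = 0.000444), and the glucose carrier SLC2A1, overlapping other genes, was -0.21 (adjusted p = 0.00168).

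Of 18 core clock genes tested, RORA, an orphan receptor that activates BMAL1, fell (-0.22, adjusted p = 0.0446) and none rose, with 17.5, 18.5 and 18.4 CPM at T20 and 21.9, 22.8 and 18.5 CPM at T0. The lowest T0 library of RORA and its highest T20 library were equal at this rounding. Its adjusted p was above 0.05 in 5 of the 6 fits that left out 1 library, all but the one without replicate 3 of T0. RORA also did not pass with DESeq2 size factors in edgeR, without a low-count filter, on the 18 Grain libraries or on the 6 libraries alone. Without replicate 2 of T0, 1 other clock gene passed, as higher. BMAL1 had 81.8, 82.1 and 80.1 CPM at T20 and 84.1, 87.4 and 84.1 CPM at T0, and it did not pass (adjusted p = 0.343). CLOCK, its partner, had 73.8, 72.2 and 76.2 CPM at T20 and 72.3, 73 and 70 CPM at T0 (adjusted p = 0.579). The transcripts of CRY1 and NR1D1 overlap other annotated genes. The repressors PER1 (0.04), PER2 (0.36), PER3 (0.18), CRY1 (-0.06) and CRY2 (-0.16) and the receptors NR1D1 (0.14) and NR1D2 (-0.04) had adjusted p of 0.267 (PER2) to 0.87 (PER1). Clock outputs had 3 of 16 members lower and none higher (1 lower without replicate 1 of T20 or replicate 1 of T0, and 6 without replicate 3 of T0). NFIL3, a repressor that competes at D-box elements, had 99.5, 106 and 103 CPM at T20 and 128, 125 and 116 CPM at T0 (log2 fold change -0.26, SE 0.037, adjusted p = 1.21e-05), while TSC22D3, the glucocorticoid-induced leucine zipper, was -0.19 (adjusted p = 0.0139) and the deadenylase NOCT was -0.21 (adjusted p = 0.014) with overlapping libraries. Neither TSC22D3 nor NOCT passed without replicate 1 of T20 or replicate 1 of T0, and NOCT also not without replicate 3 of T20 or replicate 2 of T0. Dexamethasone had been present before both harvests, and of 18 glucocorticoid target genes 4 fell and 3 rose (4 past the threshold in all without replicate 1 of T20), with ERRFI1, a feedback inhibitor of EGF receptors, at -0.21 (adjusted p = 8.09e-05).

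Of 28 interferon response genes 3 fell and 3 rose (2 past the threshold in all without replicate 3 of T20). RSAD2, the antiviral protein viperin, which overlaps another annotated gene, had 8.8, 9.13 and 10.4 CPM at T20 and 24.9, 22.1 and 17.4 CPM at T0 (log2 fold change -1.18, SE 0.12, adjusted p = 2.49e-08). Each T20 library of RSAD2 was below each T0 library, as the rule that named it required. Among 26 inflammatory genes 5 fell and none rose, with IL11, an IL-6 family cytokine, at 29.1, 32.2 and 30.9 CPM at T20 and 42.4, 38.8 and 37.2 CPM at T0 (log2 fold change -0.36, SE 0.076, adjusted p = 0.00151). Of 27 NRF2 antioxidant genes 5 fell and 2 rose (4 past the threshold in all without replicate 1 of T20). SRXN1, the sulfiredoxin that repairs peroxiredoxins, was -0.22 (adjusted p = 2.15e-06) and PRDX1, a peroxiredoxin, was 0.15 (adjusted p = 0.000399). YAP-TEAD targets had 2 of 17 members higher and none lower, led by ANKRD1, a cardiac ankyrin repeat protein, with 782, 779 and 770 CPM at T20 and 657, 649 and 672 CPM at T0 (log2 fold change 0.24, SE 0.032, adjusted p = 4.36e-06). Of the YAP-TEAD targets 1 passed without replicate 1 or replicate 3 of T20 or in the fit on the 6 libraries alone, 1 rose and 1 fell without replicate 2 of T0, 2 rose and 2 fell without replicate 3 of T0, and 3 rose and 1 fell with DESeq2.

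**Figure D3:**
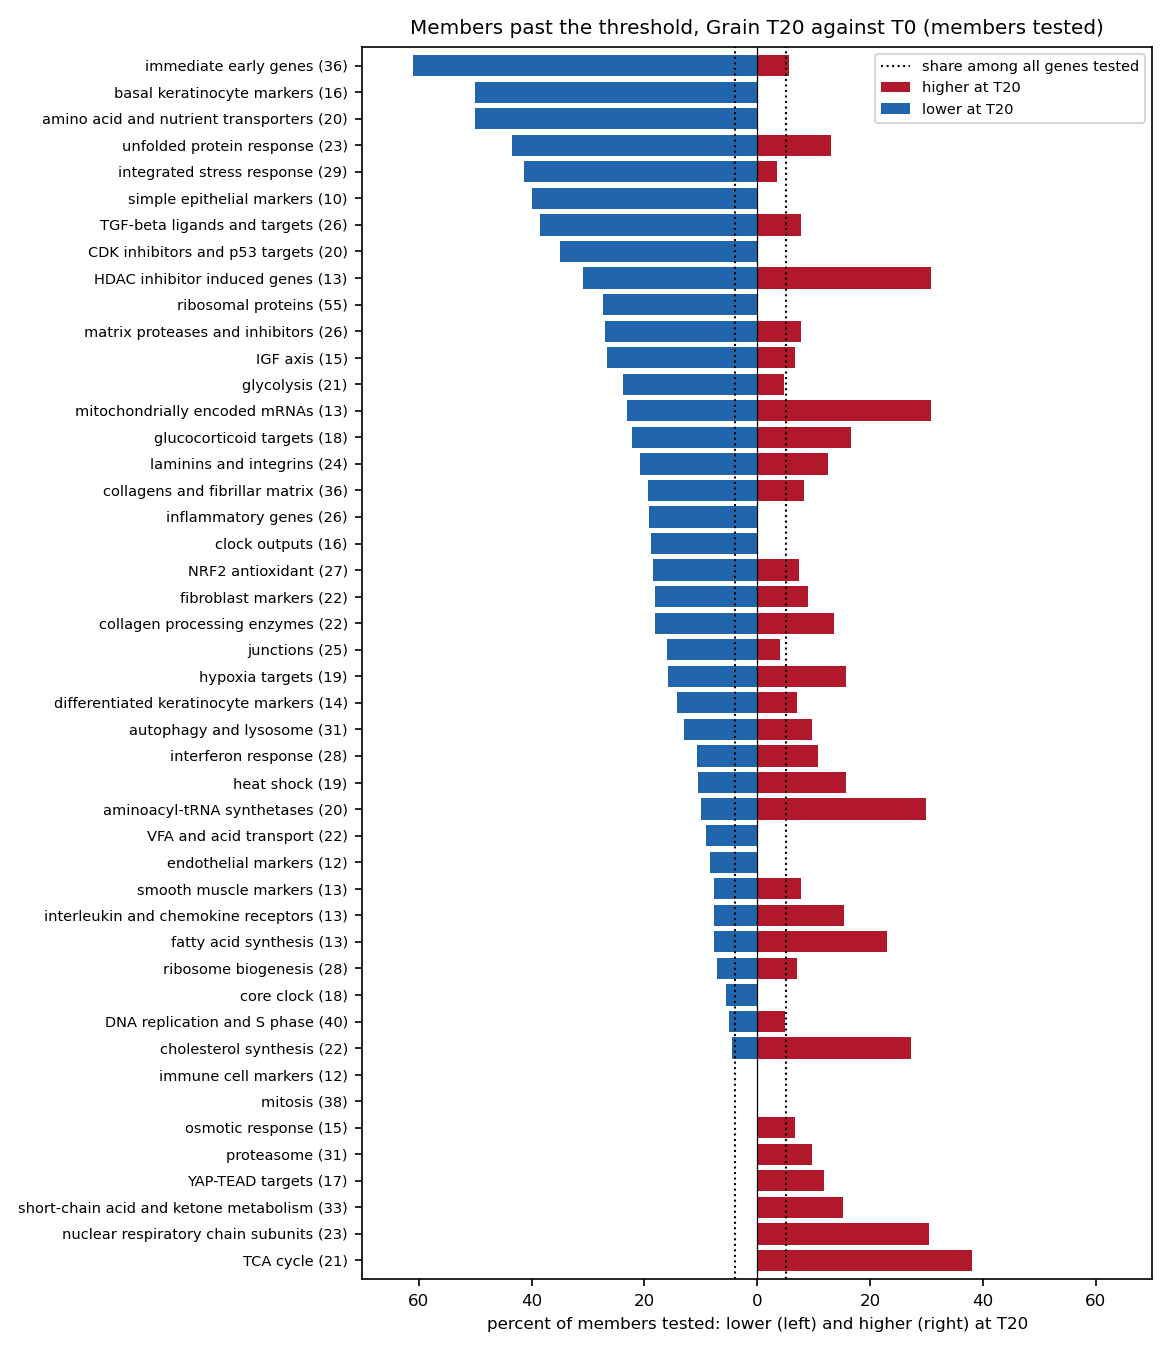
Percent of the tested members of each gene list (horizontal axis, number tested in brackets) that were lower (blue, to the left) or higher (red, to the right) at T20, for lists with at least 10 tested members; dotted lines mark 4.00% lower and 5.04% higher among all genes tested. Immediate early genes have the longest blue bar and the TCA cycle list the longest red bar.

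Among the genes that rose most by fold outside these lists, TBX18, a T-box factor of mesenchymal development, had 38.1, 37.8 and 37.1 CPM at T20 and 28, 26.5 and 28.6 CPM at T0 (log2 fold change 0.44, SE 0.059, adjusted p = 2.67e-06), and WDR5B, a WD repeat protein, had 19, 17.2 and 17 CPM at T20 and 12.9, 12.1 and 14 CPM at T0 (log2 fold change 0.45, SE 0.064, adjusted p = 1.05e-05). TFR2 (0.48), a transferrin receptor that senses iron, and RFXAP (0.56), a subunit of a factor for MHC class II genes, also rose. So did TMEM138 (0.56), a ciliary membrane protein. The rule that named these genes required no overlap between groups. ANXA2, a calcium-dependent membrane-binding protein that overlaps another annotated gene, had one of the largest rises in CPM, with 2230, 2196 and 2204 CPM at T20 and 1820, 1753 and 1736 CPM at T0 (log2 fold change 0.32, SE 0.027, adjusted p = 1.82e-10). Among the falls, TRH, the thyrotropin-releasing hormone gene, had 3.24, 3.02 and 3.72 CPM at T20 and 5.74, 6 and 5.37 CPM at T0 (log2 fold change -0.78, SE 0.16, adjusted p = 0.00107). GAL, the neuropeptide galanin, had 5.83, 4.88 and 4.76 CPM at T20 and 7.05, 7.95 and 9.72 CPM at T0 (log2 fold change -0.68, SE 0.12, adjusted p = 0.000331). SPAG4, a protein of the nuclear envelope, had 3.98, 3.63 and 4.13 CPM at T20 and 9.59, 7.71 and 8.41 CPM at T0 (log2 fold change -1.13, SE 0.22, adjusted p = 0.000847). No T20 library of these 3 genes reached the lowest T0 library, which the naming rule required for TRH and SPAG4 but not for GAL.

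Of the 5 later times, T20 had the fewest genes past the threshold against T0. Against T0, 4668 genes (20.8%) passed at T4, 6383 (28.4%) at T8, 6540 (29.1%) at T12, 2327 (10.3%) at T16 and 2032 at T20; these comparisons share the T0 libraries. Of the 1133 genes higher at T20, only 6 rose at each of the 5 steps, and of the 899 lower genes 9 fell at each step. Both T0 and T20 were the extremes of the 6 means in 202 (17.8%) of the higher and 161 (17.9%) of the lower genes. In 514 (45.4%) of the higher and 450 (50.1%) of the lower genes neither end was an extreme.

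Libraries of T4 to T16, which the comparison of the ends did not use, allowed a test of a linear slope in between. This test does not ask if a change was steady, and a low T8 with a high T12 also gives a slope. COL3A1, with 2865, 2520, 5429 and 4292 CPM at T4, T8, T12 and T16, had a rising slope (log2 change of 1.43 over 20 h). Over all genes tested, 4903 (21.8%) had a rising and 5490 (24.4%) a falling slope over these 4 times at an adjusted p under 0.05, or 4053 and 6313 with upper-quartile scaling and 5246 and 5136 with DESeq2 size factors. Of the 1133 genes higher at T20 than at T0, 312 (27.5%) had a rising slope and 478 (42.2%) a falling one. Of the 899 lower genes, 131 (14.6%) had a falling slope and 536 (59.6%) a rising one. These shares were not computed under the other scalings. Genes moving the same way in both tests included IGFBP5, CALD1, COL1A2, COL6A3 and SGK1, a kinase induced by glucocorticoids (0.1 between the ends, past the threshold in only 1 of the 6 fits that left out 1 library, the one without replicate 1 of T0), and, downward, MMP1, GAL, MMP12, the macrophage elastase (-0.4), and CRTAC1, a matrix protein of cartilage (-0.42).

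Single genes followed different courses between the ends. Mean CPM of EGR3 at T0, T4, T8, T12, T16 and T20 was 5.95, 1.31, 1.42, 1.45, 1.29 and 1.21, so that it was already low at T4. EGR1 had 59.3, 31.6, 28.7, 16.3, 18.7 and 21.2 CPM at the same times, with its lowest mean at T12. TXNIP had 396, 518, 491, 518, 530 and 585 CPM, highest at T20 and lowest at T0. H1-2 had 104, 44.7, 34.2, 98.9, 74.9 and 56.4 CPM, low at T8 and back near its T0 level at T12. KRT14 (252, 158, 137, 291, 227 and 168 CPM), COL3A1 (3966, 2865, 2520, 5429, 4292 and 3492 CPM) and HSPA5 (9393, 7662, 7008, 10156, 9824 and 8195 CPM) had their lowest mean at T8 and their highest at T12. IGFBP5 had 33.6, 29, 22.5, 74.1, 63.1 and 55 CPM, so that its T12, T16 and T20 means were all above its T0 mean. By list, the median log2 change from T0 of the immediate early genes was -0.31 at T4, -0.36 at T8, 0.053 at T12 and -0.063 at T16. That of the basal keratinocyte markers was -0.34, -0.67, 0.3 and 0.082 at the same times, and that of the collagens and fibrillar matrix genes was -0.3, -0.43, 0.38 and 0.14. With a straight line fitted beside a 24 h cosine through the 6 means, 7439 genes (33.1%) had a line past the threshold, 3799 rising (16.9%) and 3640 falling (16.2%); this fit contains the T20 and T0 libraries themselves. The split was 4356 rising and 3098 falling with upper-quartile scaling, and 3778 and 3875 with DESeq2. The line passed in the direction of the ends in 804 (71%) of the higher and 744 (82.8%) of the lower genes. It passed in the opposite direction in 64 (5.65%) and 12 (1.33%). CALD1 (line -0.78 over 20 h), COL1A2 (-0.5) and COL6A3 (-1) were such genes among the higher ones. GAL (0.93) and CRTAC1 (0.47) were such genes among the lower ones.

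**Figure D4:**
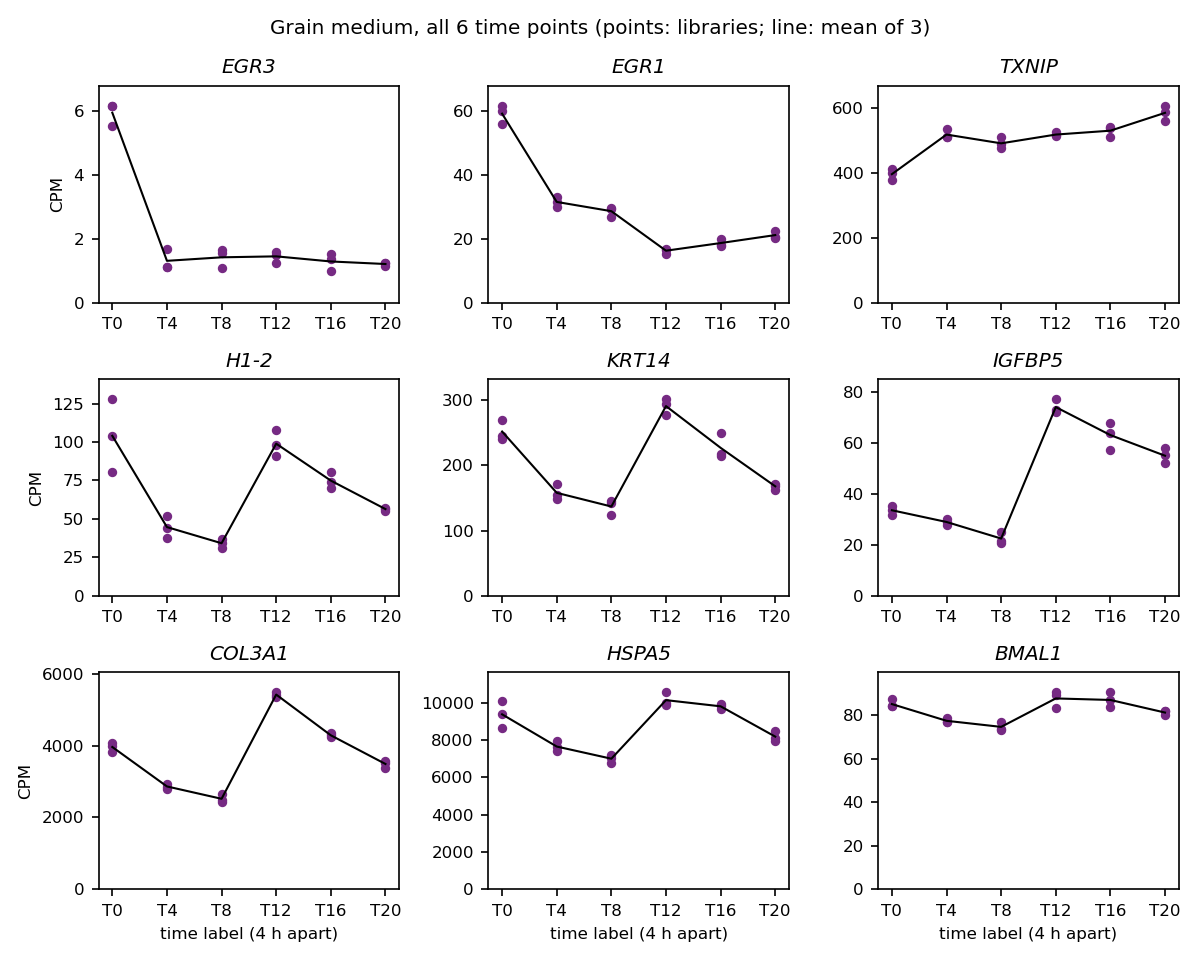
CPM (vertical axes, each from 0) of 9 genes in the 18 Grain libraries at the 6 time labels (horizontal axes); points are libraries and lines join the means of 3. EGR3 and EGR1 are highest at T0 and stay low, TXNIP ends highest, and H1-2, KRT14, COL3A1 and HSPA5 dip at T8 and peak at T12 or T0.

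In Hay, 818 genes (3.64%) passed between T20 and T0, 635 higher (2.82%) and 183 lower (0.814%), or 366 higher and 339 lower with upper-quartile scaling. This count was below that of Grain, but the gap depended on the libraries in the fit: with each medium fitted on its own 6 libraries, 1091 genes passed in Grain and 865 in Hay (544 higher and 321 lower). The Hay count was 443 without replicate 2 of Hay T0, 487 without replicate 1 of Hay T0, 511 without replicate 3 of Hay T20 and 542 without replicate 1 of Hay T20. Of the genes higher in Grain, 127 (11.2% of the Grain genes and 20% of the Hay genes) were also higher in Hay. Of the genes lower in Grain, 48 (5.34% of the Grain genes and 26.2% of the Hay genes) were also lower in Hay. Opposite calls were given to 43 genes lower in Grain and higher in Hay (4.78% of the Grain genes and 6.77% of the Hay genes), and to 4 genes higher in Grain and lower in Hay (0.353% and 2.19%). The difference itself, tested as the Grain change minus the Hay change, passed in 929 genes (4.13%), with the Grain change higher in 342 (1.52%) and lower in 587 (2.61%). With upper-quartile scaling this split was 546 and 435, so the excess of lower Grain changes depends on the scaling. The count was 572 without replicate 1 of T0 and 576 without replicate 1 of T20 of the Grain libraries.

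By group, 13 of 36 immediate early genes had a lower change in Grain and none a higher one. FOS, in Hay, had 11, 10.3 and 10 CPM at T20 and 7.86, 7.25 and 6.67 CPM at T0, and it rose there (0.53, adjusted p = 4.28e-05) while it fell in Grain (-0.67). The difference was -1.2 (SE 0.11, adjusted p = 6.98e-09). EGR1 fell in both media but further in Grain, with a change of -1.48 in Grain and -0.5 in Hay (difference -0.99, adjusted p = 6.74e-08). EGR3 did likewise, with -2.29 in Grain and -1.04 in Hay (difference -1.25, adjusted p = 0.00331). EGR2 changed by -1.4 in Grain and -0.8 in Hay, and that difference did not pass (95% interval -0.98 to -0.22, adjusted p = 0.0613). NR4A1 changed by -0.53 in Grain and -0.68 in Hay, with a 95% interval of the difference of -0.06 to 0.36 (adjusted p = 0.529).

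Among the 6 genes named by rule for a lower change in Grain were 3 of actin filaments. ACTG2, an actin of smooth muscle that overlaps another annotated gene, had 69.1, 80.8 and 76.4 CPM at T20 and 89.4, 73.1 and 70.4 CPM at T0 in Grain, where it did not pass (adjusted p = 0.783). In Hay it had 32.3, 33.7 and 32.5 CPM at T20 and 18.6, 16.8 and 16.2 CPM at T0 (difference -0.97, adjusted p = 1.51e-08). TPM2, a tropomyosin, did not pass in Grain (-0.15) and rose in Hay (0.73), with a difference of -0.88 (adjusted p = 6.98e-09). FLNA, an actin crosslinker, fell in Grain (-0.2) and rose in Hay (0.32; difference -0.52, adjusted p = 3.37e-08). Of 13 smooth muscle markers 5 had a lower change in Grain. INSIG1, the sterol sensor that restrains cholesterol synthesis, did not pass in Grain (-0.03) and rose in Hay (0.61; difference -0.64, adjusted p = 9.38e-09). Of 55 ribosomal protein genes, 19 had a lower change in Grain, where 15 fell, while 8 rose in Hay. In the unfolded protein response 9 of 23 genes had a lower change in Grain and 1 a higher one, and in the integrated stress response 9 of 29 had a lower and none a higher one. HSPA5 changed by -0.2 in Grain and 0.11 in Hay (difference -0.31, adjusted p = 0.00039). It had 1316, 1293 and 1305 CPM at T20 and 1226, 1200 and 1194 CPM at T0 in Hay, below its level in Grain at either time.

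Genes with a higher change in Grain were led by TXNIP, which rose in both media, by 0.56 in Grain and 0.18 in Hay (difference 0.38, adjusted p = 5.18e-07). KIFAP3, a subunit of the kinesin-2 motor, had 74.1, 71.3 and 71.6 CPM at T20 and 56.6, 59.1 and 55.5 CPM at T0 in Grain, and 146, 150 and 148 CPM at T20 and 151, 151 and 153 CPM at T0 in Hay. It rose in Grain and did not pass in Hay (difference 0.37, adjusted p = 1.66e-05). OCRL (0.31), an inositol phosphatase, SMARCA1 (0.33, overlapping another annotated gene), a chromatin remodeller, CALCOCO2 (0.25), an autophagy receptor, and CRYZ (0.33), a quinone reductase, had differences of the same sign. For ARRDC4 the changes of 0.27 in Grain and 0.32 in Hay did not differ past the threshold (95% interval -0.14 to 0.04, adjusted p = 0.637), and for SLPI the interval was -0.29 to 0.07 around changes of -0.74 in Grain and -0.63 in Hay.

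**Figure D5:**
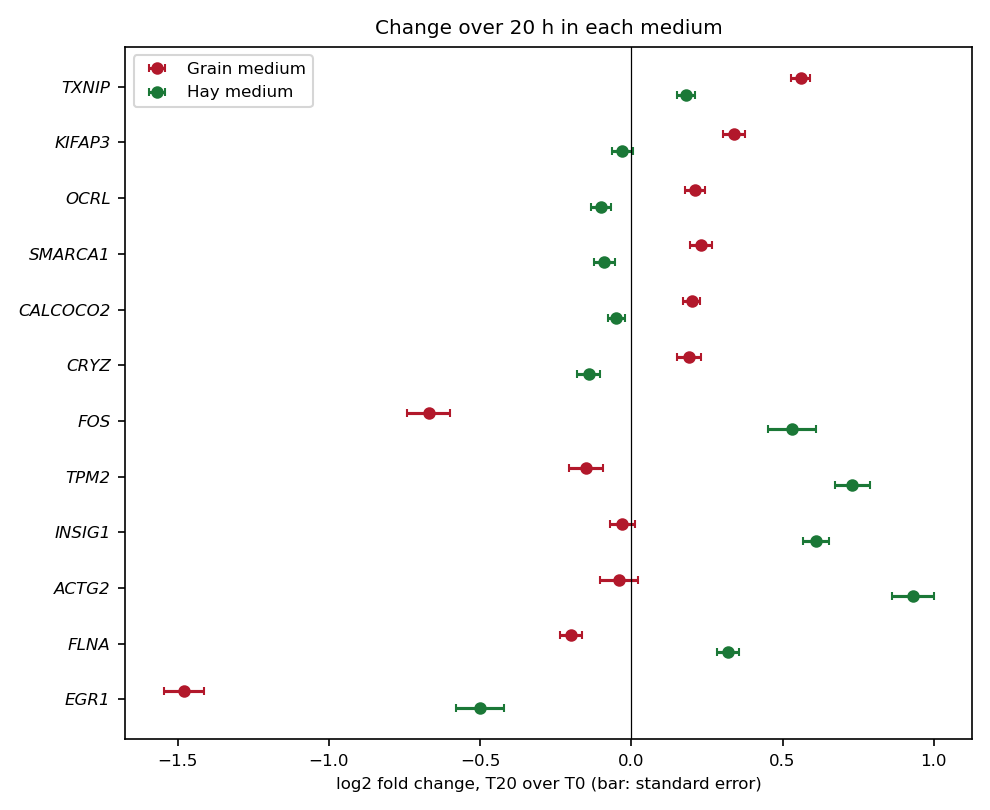
Log2 fold change of T20 over T0 (horizontal axis, bars: standard error) in Grain medium (red) and Hay medium (green) for the 12 genes with the smallest p for a difference between media, 6 of each sign. FOS and FLNA lie on opposite sides of 0 in the media, TXNIP lies further right in Grain, and EGR1 lies further left in Grain.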

How the data were processed

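RNA of 36 samples was extracted with TRNzol, made into TruSeq RNA v2 libraries, which do not mark strand, and sequenced in pairs (NovaSeq), as the labels' protocols state. The submitters' processing notes name HISAT2 2.2.1, SAMtools 1.20 and StringTie 2.1.5 without their roles; which genome build was used, and which program wrote the table, is not given in the sources. The authors deposited whole-number counts per gene for 35223 genes, not normalized, of which 2778 have no symbol; all 29910 distinct symbols were found in RefSeq names. Because strand was not recorded, genes whose loci overlap another annotated gene (63 of 193 named by rule) are uncertain.

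Counts were filtered with filterByExpr (minimum count 10, minimum total 15), which left 22488 genes, scaled by TMM and fitted in edgeR 4.0.16 (R 4.3.3) with 12 groups over 36 libraries. Quasi-likelihood tests were two-sided, with Benjamini-Hochberg adjustment over all genes tested and a threshold of 0.05. The standard error of a log2 fold change was computed as its size over the square root of F. The same fit gave the Hay contrast, the difference between media, the slope over T4 to T16 and a line beside a 24 h cosine. DESeq2 1.42.0, other scalings, filters, sets of libraries and a replicate block were tried as alternatives. CPM are counts per 1000000 of the TMM-scaled library size.

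Genes were named by a rule, with a symbol and a mean of at least 5 CPM in either group. It took the 12 largest rises and 12 largest falls past the threshold without overlap of libraries. Under the same conditions it took the 5 largest rises and falls in CPM. Core clock genes were added, with up to 4 members of each other list past the threshold with the smallest p. For the difference between media it took the 6 smallest p of each sign. Last came the 5 smallest slope p of each direction among genes that also passed, the same way, between the ends. Some genes that the rule picked are not reported here. Other genes were named after their values had been seen. The 48 gene lists and the comparison were chosen with earlier results of these data known.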

Additional observations from a re-analysis of the deposited data

Results flagged for a closer look

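For the genes below, the change between T20 and T0 in Grain minus that in Hay passed the edgeR quasi-likelihood test of the difference itself, at an adjusted p under 0.05 (4.13% of all genes tested). Each value is this difference on the log2 scale, with 3 libraries in each of the 4 groups. The genes were drawn from those named in the text, many of them chosen for their change in Grain. The difference uses the same Grain libraries, so differences in the direction of the Grain change were favoured by this choice. How many genes lie on each side below is therefore no result about the media.

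Among genes that fell in Grain and rose in Hay, the difference was -1.2 for FOS, -1.03 for IL11, -0.61 for MMP14, -0.53 for JUN, -0.52 for ADAMTS1, -0.52 for FLNA, -0.39 for COX3, -0.39 for TGFB1 and -0.34 for HERPUD1. In further genes of this kind it was -0.34 for LOXL2. Among genes that rose in Grain and fell in Hay, the difference was 0.33 for CRYZ. Among genes that fell in both media, the difference was -1.25 for EGR3, -0.99 for EGR1 and -0.22 for FMOD. Among genes that rose in both media, the difference was -0.19 for COL6A3, 0.15 for ANXA2, 0.32 for IGFBP5 and 0.38 for TXNIP. Among genes that fell in Grain and did not pass in Hay, the difference was -2.02 for H3-4, -1.04 for H1-4, -0.9 for RSAD2, -0.84 for DUSP2, -0.69 for H1-2, -0.65 for GAL, -0.63 for H1-6, -0.62 for KRT14 and -0.62 for S100A2. In further genes of this kind it was -0.58 for CA2, -0.53 for KRT6A, -0.48 for PLK3, -0.45 for DNAJB1, -0.43 for CYTB, -0.43 for SQSTM1, -0.4 for KRT17, -0.4 for KRT5 and -0.39 for ATF3. In further genes of this kind it was -0.39 for BTG2, -0.38 for PPP1R15A, -0.36 for CNN1, -0.35 for SLC3A2, -0.31 for HSPA5, -0.31 for IGFBP3, -0.3 for RPS19, -0.3 for SLC2A1 and -0.29 for EREG. In further genes of this kind it was -0.29 for SARS1, -0.29 for SRXN1, -0.28 for COL5A2, -0.28 for HK2, -0.27 for SLC2A3, -0.26 for AARS1, -0.26 for COL3A1, -0.25 for P4HA1 and -0.25 for RPL8. In further genes of this kind it was -0.24 for NFIL3, -0.24 for SLC7A1, -0.23 for ERRFI1, -0.22 for NOP56 and -0.16 for ATF4. Among genes that rose in Grain and did not pass in Hay, the difference was 0.13 for STIP1, 0.15 for IDH1, 0.17 for ACADSB, 0.19 for CREB3L2, 0.19 for RARS1, 0.2 for ANKRD1, 0.22 for NDUFB3, 0.25 for CALCOCO2 and 0.27 for DSC2. In further genes of this kind it was 0.28 for GREM1, 0.31 for OCRL, 0.33 for SMARCA1, 0.37 for KIFAP3 and 0.46 for WDR5B. Among genes that did not pass in Grain and rose in Hay, the difference was -0.97 for ACTG2, -0.88 for TPM2, -0.64 for INSIG1, -0.21 for HSP90B1 and -0.2 for CALR.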

How the results depend on the processing

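The count of genes that differed between Grain T20 and T0 was 2321 with DESeq2, 2005 with DESeq2 size factors, 2028 with upper-quartile factors, 2264 with a filter of at least 1 CPM, 1770 without a filter and 1655 with the 18 Grain libraries, against 2032. It was 1091 with only the groups of the contrast, where 175 list members passed against 259; there the counts were also over 1.5 times lower for clock outputs (1), acid transport (1), heat shock (2), collagen enzymes (2), ribosome biogenesis (2), interferon (3), glucocorticoid targets (3), autophagy (3), NRF2 (4) and HDAC inhibitor genes (5). Leaving out 1 library gave 1276 to 1896 genes, and 179 to 241 instead of 259 members of the gene lists. The Hay count was 443 to 573 without 1 library, the count of differences between media 572 to 916, the count of slopes 9470 to 10343 and the count of lines 6426 to 7485. The difference between media split into 513 higher and 564 lower with the filter of at least 1 CPM, and into 331 and 396 without a filter. The cause was not tested. The main fit did not pair libraries by replicate number, since the labels do not say that the numbers pair them. Deviations from the group means of same-numbered Grain libraries correlated at -0.0479, 0.0516 and -0.0846. Those of differently numbered ones correlated at -0.0822 to 0.127. Such values cannot show whether libraries shared a culture. With a replicate block the counts were 1989 for Grain, 831 for Hay, 934 for the difference, 10292 for the slope, 7385 for the line and 262 for list members. Scaling by DESeq2 size factors, upper-quartile factors and DESeq2 moved the median log2 fold change of all genes to 0.00027, -0.00061 and 0.00024. It turned the sign of the list medians of acid transport and of laminins and integrins, both close to 0, and of no other list. No named gene that passed in the main fit or in the alternative fit reversed its direction between them. Turns of sign in genes that passed in neither fit were not counted. With 3 libraries a group, differences within the spread of the libraries were not detectable at this depth.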

Other observations

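ACOT6, an acyl-CoA thioesterase gene chosen after its values were seen, passed the test with a log2 fold change of 3.71 (adjusted p = 0.00522, edgeR quasi-likelihood test), although its groups overlapped. It had 3.19, 53.9 and 57 CPM in Grain T20 libraries and 2.69, 2.75 and 3.27 CPM in Grain T0 libraries, so that 2 of 3 T20 libraries were high and the third lay within the range of T0. In Hay it had 2.38, 2.63 and 50.9 CPM at T20 and 2.54, 2.4 and 3.11 CPM at T0, with 1 library of T20 high. The cause was not tested.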
